A study of Mus musculus with 6 samples.

Results

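The genes described here write or read methylation of a lysine of the histone H3 tail (H3K9) beside Setdb1, the H3K9 methyltransferase gene that was deleted in this study. They are the methyltransferase genes Suv39h1, Suv39h2, Ehmt1, Ehmt2 and Setdb2 and the heterochromatin protein 1 (HP1) genes Cbx1, Cbx3 and Cbx5. These 8 genes were chosen by name, for what their products do, out of 55487 genes in the count table, and all 8 had enough counts to be tested. The comparison gives the transcript levels of these other writers and readers of the mark with and without Setdb1. RNA was sequenced from muscle stem cells of 10-week-old mice, 60 h after cardiotoxin, a venom toxin used to destroy muscle fibres so that their regeneration can be followed. Of the 6 libraries, 3 came from mice labelled wild type and given oil (control) and 3 from mice labelled knockout for Setdb1 and given tamoxifen (KO). Genotype and tamoxifen differ together between the groups, so their effects cannot be told apart. The promoter that drives the recombinase and the deleted exon were not stated in what was used here. The labels call the libraries biological replicates, but do not say that each came from a separate mouse.

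Methylated H3K9 marks silenced chromatin. SUV39H1 and SUV39H2 deposit the trimethyl mark in the repeats around centromeres, EHMT2 (G9a) and EHMT1 (GLP) work as a heterodimer that deposits mono- and dimethyl marks in gene-rich chromatin, and SETDB1 trimethylates H3K9 at retroelements and at the targets of zinc finger repressors. SETDB2 is a relative of SETDB1 with a divided catalytic domain. HP1 proteins bind the methylated lysine through a chromodomain and recruit other proteins through a chromoshadow domain. In muscle stem cells, heterochromatin formed by these enzymes is known for its part in keeping genes of other lineages and of differentiation silent until they are needed.

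Libraries held 4052569 to 5690844 counts. KO library 1 stood apart: 30363 genes had at least 1 count in it, against 18737 to 19951 in the other 5 libraries, and it held the fewest protein-coding counts, 2002124 against 2639292 to 3050460. The summed counts of the 8 genes were 1880 in KO library 1 and 2896 to 3692 elsewhere. The fold change of Setdb1 and of each of the 8 genes is therefore also given without KO library 1. All 12 muscle stem cell markers on the list were measured well enough to test, and their summed level was 1332 to 1423 CPM (counts scaled to a common library size by the TMM method, in the unit CPM) in control and 1499 to 1935 CPM in KO libraries. Of these 12, Myod1, which encodes a myogenic transcription factor, was the 1 gene called by edgeR, and it rose from 142 ± 5.49 to 292 ± 63.4 CPM. The higher sum was not shared by the list as a whole. In it 6 genes had a log2 fold change above 0 and 6 below, with a median of 0.01. Des, which was not called, averaged 371 CPM in control and 510 CPM in KO libraries, while Pax7 averaged 26.9 CPM in both groups. Neutrophil markers summed to 2096 CPM in control library 3, 740.5 CPM in KO library 2 and 279 CPM in KO library 3, and to at most 3.80 CPM in the other 3 libraries. The summed levels of the macrophage list (8 genes) were 9.39 to 83.9 CPM in control and 8.78 to 35.5 CPM in KO libraries, of the fibro-adipogenic list (6 genes) 563 to 1311 and 1160 to 1729 CPM, and of the mural list (6 genes) 55.3 to 85.3 and 99.3 to 119 CPM, with Tagln and Acta2 called higher in KO cells. The call of Tagln was kept in all 16 alternative analyses and that of Acta2 in 10, and Acta2 did not pass without KO library 1 (edgeR adjusted p = 0.161). None of the other mural genes was called. Called higher were thus 2 of 5 tested mural genes and 1 of 12 muscle stem cell markers, beside 2.22% of all tested genes. Mean levels in control and KO libraries were 8.24 and 8.33 CPM for Rgs5, 7.80 and 9.49 for Pdgfrb, 3.54 and 6.05 for Cspg4, and 1.90 and 1.81 for Myh11. The part of these other cells in the results below was not tested. The endothelial, lymphocyte and Schwann cell lists stayed at or under 11.97 CPM in every library.

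Setdb1 was measured first, as a check of the labels. It stood at 34.9, 40.5 and 32.1 CPM in control libraries 1 to 3 and at 16.5, 12.7 and 14.7 CPM in KO libraries 1 to 3. The groups did not overlap, and Setdb1 fell by 1.30 on the log2 scale (SE 0.16, edgeR adjusted p = 2.09e-04). Without KO library 1 the log2 fold change was -1.38 (adjusted p = 0.00127). Of the 50-base words of Setdb1 transcripts, 7.96% also occur in 16 other genes, which had 12481 counts in all against 741 for Setdb1, and the part of shared reads in its level in KO libraries was not tested.

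None of the 8 other H3K9 and HP1 genes rose in KO cells. With edgeR's quasi-likelihood test, 0 of the 8 passed an adjusted p of 0.05 in either direction, where 2.83% of all 11224 tested genes passed (2.22% higher and 0.615% lower). DESeq2 and limma-voom also called 0. At an unadjusted p under 0.05, 3 of the 8 were lower (Setdb2, Cbx1 and Cbx3) and 0 higher, beside 7.64% of all tested genes that were lower and 10.1% that were higher at that threshold. All 8 had a log2 fold change below 0, as had 49.1% of all tested genes, and their median was -0.34, against 0.01 for all tested genes. In 3 of the 8 every KO library lay below every control library (Ehmt1, Cbx1 and Cbx3), an order seen in 11.5% of all tested genes. Without KO library 1 the median of the 8 was -0.23, and 0 were called.

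**Figure D1:**
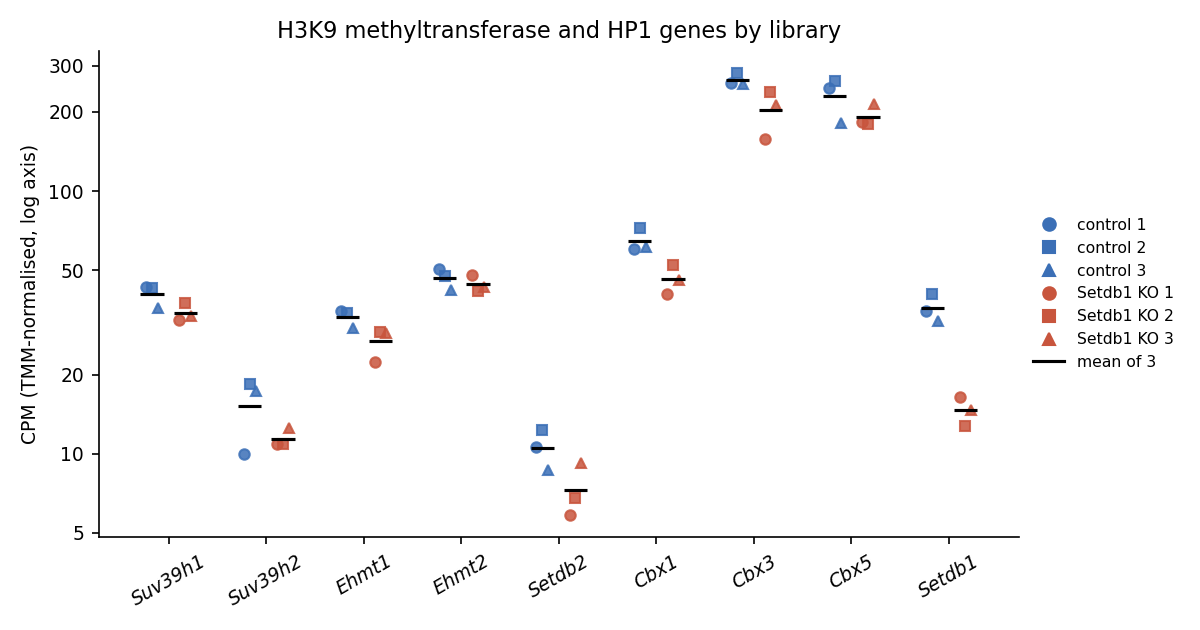
Normalised CPM (log axis) of the 8 genes and of Setdb1 in each library, with control libraries in blue, KO libraries in red, marker shapes for the library number within a group, and a bar at the mean of 3 libraries. The Setdb1 groups are far apart (35.8 and 14.6 CPM on average), while the groups of the 8 other genes lie close together or overlap.

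Suv39h1 (ENSMUSG00000039231, chromosome X, 8061171 to 8074760, minus strand, GRCm38) encodes an enzyme that trimethylates H3K9. It was measured at 43.3, 42.6 and 36.0 CPM in control libraries 1 to 3 and at 32.2, 37.6 and 33.4 CPM in KO libraries 1 to 3. Control library 3 lay below KO library 2, so the groups overlapped, although the other 2 KO libraries lay below all controls. The means were 40.6 ± 3.998 and 34.4 ± 2.83 CPM (SD, n = 3 each), with a log2 fold change of -0.24 (SE 0.13, 95% interval -0.52 to 0.05, edgeR adjusted p = 0.373), and -0.19 without KO library 1 (interval -0.51 to 0.12). An antisense gene, Gm14820, overlaps 14.6% of its exon bases, but had at most 7 counts in any library.

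Suv39h2 (ENSMUSG00000026646, chromosome 2, 3455815 to 3475031, minus strand), the paralogue of Suv39h1, was measured less precisely, with 41 to 94 counts per library. It stood at 10.0, 18.4 and 17.4 CPM in control and at 10.9, 10.9 and 12.5 CPM in KO libraries. Control library 1 was the lowest of the 6 and control libraries 2 and 3 were the highest, so the spread within the control group covered the whole KO group. Exons of Dclre1c on the opposite strand cover 8.10% of its exon bases. Dclre1c had 8, 11 and 11 counts in control and 23, 11 and 19 counts in KO libraries. The strand setting of the counts was not stated, and the part of such reads in the level of Suv39h2 was not tested. The log2 fold change was -0.41 (SE 0.22, interval -0.89 to 0.07, edgeR adjusted p = 0.356), and it was -0.65 without control library 1 (adjusted p = 0.0996) and -0.27 without control library 2 (0.705). Leaving out KO library 1 gave -0.38 (interval -0.96 to 0.20). Per length, the ratio of Suv39h1 to Suv39h2 was 3.62, 1.94 and 1.74 in control and 2.47, 2.89 and 2.24 in KO libraries, so the balance of the pair in KO cells lay within its range in control cells.

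Ehmt1 (ENSMUSG00000036893, chromosome 2, 24789928 to 24919614, minus strand), which encodes GLP, stood at 35.0, 34.2 and 30.1 CPM in control and at 22.3, 29.2 and 28.9 CPM in KO libraries. All KO libraries lay below all controls, KO library 1 by the widest margin. The log2 fold change was -0.30 (SE 0.15, interval -0.61 to 0.01, edgeR adjusted p = 0.306), and -0.19 without KO library 1 (adjusted p = 0.604).

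Ehmt2 (ENSMUSG00000013787, chromosome 17, 34898469 to 34914052, plus strand), which encodes G9a, stood at 50.5, 47.6 and 41.9 CPM in control and at 47.9, 41.5 and 43.0 CPM in KO libraries. The groups overlapped almost fully, and the fold change was the closest to 0 of the 8 (log2 fold change -0.08, SE 0.13, interval -0.35 to 0.19, edgeR adjusted p = 0.778). Without KO library 1 it was -0.14 (interval -0.44 to 0.15), without control library 3 it was -0.16, and it was -0.03 without control library 1 and -0.04 without KO library 2. Ehmt2 exceeded Ehmt1 per length by a ratio of 2.13, 2.06 and 2.06 in control libraries and of 3.17, 2.10 and 2.20 in KO libraries. The 3.17 came from KO library 1, where Ehmt1 was at its lowest and Ehmt2 was at 47.9 CPM, the highest of the KO libraries.

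Setdb2 (ENSMUSG00000071350, chromosome 14, 59402009 to 59440884, minus strand) is the closest relative of Setdb1 among the 8, and was the least abundant, with 22 to 59 counts per library. It stood at 10.6, 12.3 and 8.68 CPM in control and at 5.85, 6.78 and 9.19 CPM in KO libraries. KO library 3 lay above control library 3, and the other KO libraries lay below all controls. The log2 fold change was -0.52 (SE 0.24, interval -1.03 to -0.003, unadjusted p = 0.0487, edgeR adjusted p = 0.278), and without KO library 1 it was -0.39 with an interval of -0.95 to 0.16. Cab39l, which starts 88 bases away on the opposite strand and encodes a scaffold of the kinase LKB1, stood at 25.0 ± 1.51 and 24.3 ± 4.62 CPM (log2 fold change -0.03, adjusted p = 0.944).

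The HP1 genes were the most abundant of the 8. Because Cbx1 and Cbx3 had the smallest p-values of the HP1 genes and Cbx3 and Cbx5 each start close to an abundant gene on the opposite strand, the promoters of these 3 genes are shown. Each runs from 250 bases before to 50 bases after the first start that RefSeq lists on GRCm38.p6, read 5′ to 3′ on the strand of the gene, at chr11:96788885-96789184 (plus strand) for Cbx1, chr6:51470366-51470665 (plus strand) for Cbx3 and chr15:103239803-103240102 (minus strand) for Cbx5. Capitals mark the words found by a search of both strands for TTTCCCGC, TTTCGCGC, TTTGCCGC or TTTGGCGC (E2F), CCGGAAGT (ETS), the NRF1 word, CCAAT (the CCAAT box) and TTTGAA (the cell cycle element CHR).
Cbx1: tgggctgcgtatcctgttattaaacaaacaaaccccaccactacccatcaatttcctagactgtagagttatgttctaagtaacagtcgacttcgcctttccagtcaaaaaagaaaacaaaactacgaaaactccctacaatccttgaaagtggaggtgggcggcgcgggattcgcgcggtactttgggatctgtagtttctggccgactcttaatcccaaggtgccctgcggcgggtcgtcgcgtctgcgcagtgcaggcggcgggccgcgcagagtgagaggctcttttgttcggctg
Cbx3: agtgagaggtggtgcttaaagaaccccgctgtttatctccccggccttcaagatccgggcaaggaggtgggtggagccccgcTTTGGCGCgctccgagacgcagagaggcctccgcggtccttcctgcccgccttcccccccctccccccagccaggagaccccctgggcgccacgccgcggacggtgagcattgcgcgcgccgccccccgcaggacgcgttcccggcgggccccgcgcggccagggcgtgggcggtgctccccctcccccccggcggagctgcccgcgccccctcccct
Cbx5: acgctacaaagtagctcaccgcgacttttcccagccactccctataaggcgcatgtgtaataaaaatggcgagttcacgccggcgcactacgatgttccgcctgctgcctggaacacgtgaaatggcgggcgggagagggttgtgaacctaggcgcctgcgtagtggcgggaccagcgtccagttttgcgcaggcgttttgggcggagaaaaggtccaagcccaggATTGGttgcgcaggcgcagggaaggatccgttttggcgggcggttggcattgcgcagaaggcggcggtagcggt
All 3 windows were rich in CpG, with 22, 34 and 29 of these dinucleotides against a median of 7 over 32851 RefSeq windows of 300 bases. The Cbx1 window held none of the words. The RefSeq start lies 8 bases after the GENCODE start of the gene for Cbx1 and 256 bases after it for Cbx3, so the Cbx3 window lies wholly after the GENCODE start, from which gene positions and distances to neighbours are counted. For Cbx5 the RefSeq start lies 36 bases before it. The Cbx3 window held TTTGGCGC on its own strand, 168 to 161 bases before the RefSeq start, and an E2F word was present in 2.26% of all windows. The Cbx5 window held a CCAAT box on the opposite strand, 24 to 20 bases before the RefSeq start, as 37.4% of all windows did. Over the 12 windows of the 8 genes, 2 held an E2F word (Cbx3 and Suv39h1), 3 a CCAAT box (Cbx5, Setdb2 and Suv39h1), 1 TTTGAA (Suv39h2, 17.9% of all windows), and none CCGGAAGT (3.89%) or the NRF1 word (0.971%). A word is a match of letters only, and other spellings of these sites were not searched.

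Cbx1 (ENSMUSG00000018666, chromosome 11, 96789127 to 96808640, plus strand), which encodes HP1 beta, came closest to the threshold of the 8 genes. It stood at 60.3, 72.2 and 61.1 CPM in control and at 40.4, 52.4 and 45.7 CPM in KO libraries. Every KO library lay below every control, with means of 64.6 ± 6.66 and 46.2 ± 5.98 CPM (SD, n = 3 each). The log2 fold change was -0.48 (SE 0.13, interval -0.76 to -0.20, unadjusted p = 0.00232, edgeR adjusted p = 0.0657). Over 16 alternatives the adjusted p ran from 0.0468 to 0.297 and passed in 2 of them, 0.0497 with mitochondrial and structural RNA genes removed and 0.0468 when control library 3 and KO library 2 were both left out. Without KO library 1 the log2 fold change was -0.40 (interval -0.69 to -0.10, adjusted p = 0.236).

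Cbx3 (ENSMUSG00000029836, chromosome 6, 51470360 to 51483704, plus strand), which encodes HP1 gamma, the HP1 protein also found over the bodies of active genes, stood at 257, 282 and 256 CPM in control and at 158, 237 and 213 CPM in KO libraries. The groups did not overlap, and KO library 1 was the lowest by a wide margin. The log2 fold change was -0.38 (SE 0.14, interval -0.69 to -0.08, edgeR adjusted p = 0.182), and without KO library 1 it was -0.23 with an interval of -0.49 to 0.02. Of the 50-base words of Cbx3 transcripts, 7.39% also occur in 13 other genes, led by processed pseudogenes such as Cbx3-ps6. Those genes had 437 counts in all, against 6855 for Cbx3.

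Cbx5 (ENSMUSG00000009575, chromosome 15, 103191544 to 103239816, minus strand), which encodes HP1 alpha, stood at 247, 262 and 181 CPM in control and at 183, 179 and 214 CPM in KO libraries. Control library 3 lay among the KO libraries, well under the other 2 controls. The log2 fold change was -0.26 (SE 0.14, interval -0.57 to 0.05, edgeR adjusted p = 0.366). The value was -0.41 without control library 3 (interval -0.68 to -0.14, adjusted p = 0.101), -0.17 without control library 2 and -0.22 without KO library 2. Control library 3 and KO library 2 held the most neutrophil transcripts. Without both of them the value was -0.36 (adjusted p = 0.266). Leaving out KO library 1 gave -0.23 (interval -0.60 to 0.14).

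The neighbours across the divergent promoters of Cbx3 and Cbx5 are Hnrnpa2b1, 466 bases from start to start, and Hnrnpa1, 616 bases from start to start, both genes for abundant RNA-binding proteins of the spliceosome. Hnrnpa2b1 stood at 816, 836 and 906 CPM in control and at 517, 761 and 742 CPM in KO libraries (log2 fold change -0.34, SE 0.15, edgeR adjusted p = 0.265). Hnrnpa1 stood at 944, 1090.1 and 1025 CPM in control and at 644, 918 and 855 CPM in KO libraries (log2 fold change -0.34, SE 0.15, adjusted p = 0.254). In both genes all KO libraries lay below all controls, an order seen in 11.5% of all tested genes. KO library 1 was the lowest of the 6, as in 21.8% of all tested genes. Without KO library 1 the log2 fold changes were -0.18 (edgeR adjusted p = 0.535) and -0.20 (0.504). Neither neighbour passed the threshold with or without that library. C2, the neighbour of Ehmt2, had 4 counts or fewer in every library and was not tested.

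The intervals give the size of increase in the mean transcript level of the libraries that these data still allow. Protein and H3K9 methylation are not part of these data. Setdb1 itself stood at 0.41 of its control level in KO libraries, and the share of cells that kept the gene was not measured. A larger rise in only some of the cells is therefore not bounded by these intervals. For the 8 genes with all libraries, the highest upper limit was 0.19 on the log2 scale (Ehmt2), an increase of 13.8%. Over the 16 alternatives the highest was 0.33 (Suv39h2, without control library 3 and KO library 2), an increase of 25.4%. In the other direction the intervals reached -1.03 for Setdb2 and -0.89 for Suv39h2, the 2 genes with the fewest counts. Decreases of up to those sizes lie within the intervals of these 2 genes. Each interval is for 1 gene, is not adjusted for the number of genes, and treats these libraries as the replicates. In RNA from a mixed population, fewer cells of a type and less RNA per cell cannot be told apart.

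**Figure D2:**
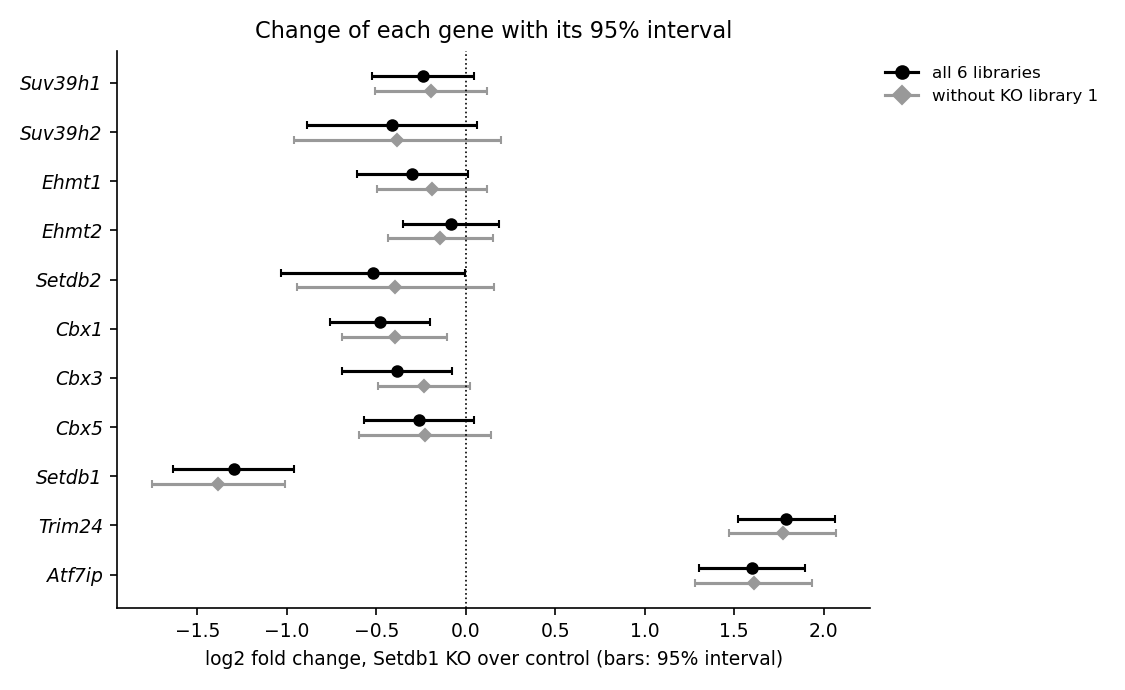
Log2 fold change of KO over control with its 95% interval for the 8 genes, for Setdb1 and for 2 genes of the partner lists, with all 6 libraries (black circles) and without KO library 1 (grey diamonds). The 8 genes lie between -0.52 and -0.08, with no upper limit above 0.19 in the black set, while Setdb1 is at -1.30, Trim24 at 1.79 and Atf7ip at 1.60.

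To compare genes with each other, CPM were divided by the kilobases of annotated exon. On this length-scaled level, HP1 transcripts stood above all of the methyltransferases in both groups. In control libraries Cbx3 was at 44.2 ± 2.45, Cbx5 at 25.5 ± 4.78 and Cbx1 at 15.1 ± 1.56 CPM per kilobase (SD, n = 3). The writers followed with Ehmt2 at 8.50 ± 0.79, Suv39h1 at 7.71 ± 0.76, Setdb1 at 5.23 ± 0.62, Ehmt1 at 4.08 ± 0.33, Suv39h2 at 3.46 ± 1.04 and Setdb2 at 2.60 ± 0.45. The ranges of neighbours in this order overlapped for Ehmt2 and Suv39h1, for Ehmt1 and Suv39h2, and for Suv39h2 and Setdb2, so those pairs are not ordered beyond the spread of the libraries.

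In KO cells the 8 genes kept this order, and Setdb1 moved from the sixth place among the 9 to the eighth. The KO levels were 33.8 ± 6.81 for Cbx3, 21.3 ± 2.10 for Cbx5, 10.8 ± 1.40 for Cbx1, 8.04 ± 0.61 for Ehmt2, 6.53 ± 0.54 for Suv39h1, 3.30 ± 0.48 for Ehmt1, 2.59 ± 0.21 for Suv39h2, 2.13 ± 0.27 for Setdb1 and 1.797 ± 0.43 for Setdb2 (CPM per kilobase, SD, n = 3). There the ranges of Ehmt1 and Suv39h2, and of Setdb1 and Setdb2, overlapped. The order depends on the length used: with the longest annotated transcript in place of all exons, Cbx1 (27.2) stood above Cbx5 (26.1) and Suv39h1 (13.0) above Ehmt2 (11.6) in control cells.

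**Figure D3:**
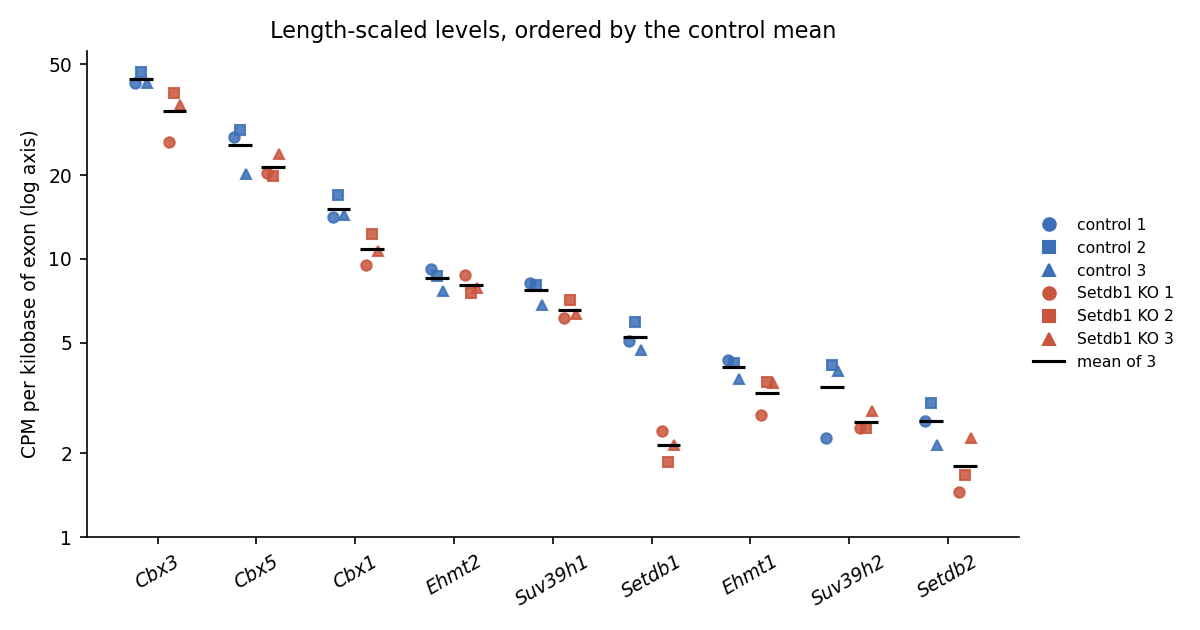
CPM per kilobase of exon (log axis) of the 8 genes and Setdb1 in each library, ordered by the control mean, with control libraries in blue, KO libraries in red and a bar at the mean of 3. The 3 HP1 genes lead in both groups, from 44.2 for Cbx3 to 15.1 for Cbx1 in control cells, and Setdb1 drops from 5.23 to 2.13.

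The summed length-scaled level of the 3 HP1 genes was 84.4, 93.0 and 77.1 in control and 56.1, 71.7 and 70.0 in KO libraries. Every KO sum lay below every control sum, an order that 11.5% of all tested genes showed singly. The sum was not tested, and none of the 3 genes was called. The shares of the sum overlapped between the groups for each paralogue. Cbx3 made up 50.8%, 50.6% and 55.4% of the sum in control and 46.9%, 55.2% and 50.9% in KO libraries. Cbx5 made up 32.5%, 31.3% and 26.1%, and 36.2%, 27.7% and 33.9%. Cbx1 made up 16.7%, 18.2% and 18.6%, and 16.9%, 17.1% and 15.3%.

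In each of the 2 lists of partner genes, 1 gene was called in KO cells and none of the others was. In the list of partners of the G9a-GLP and SUV39 enzymes, 1 of 13 tested genes rose and 0 fell, beside 2.22% and 0.615% of all tested genes. The median log2 fold change was -0.15 (-0.08 without KO library 1). The gene that rose was Atf7ip, which is on this list although its product stabilises SETDB1, the deleted enzyme, in the nucleus. It stood at 65.3, 47.2 and 53.4 CPM in control and at 166, 153 and 185 CPM in KO libraries (log2 fold change 1.60, SE 0.14, edgeR adjusted p = 5.61e-06). Uhrf1, which binds methylated H3K9 and guides DNA methylation at replication forks, averaged 152 ± 7.71 CPM in control and 115 ± 8.14 CPM in KO libraries (edgeR adjusted p = 0.0736 for a log2 fold change of -0.41; named after its values were seen).

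In the list of HP1 partners, 1 of 18 tested genes rose and 0 fell (2.22% and 0.615% of all tested genes), with a median of -0.22. The gene that rose was Trim24, a relative of the corepressor gene Trim28, with 23.6, 21.3 and 19.0 CPM in control and 75.8, 73.3 and 72.1 CPM in KO libraries (log2 fold change 1.79, SE 0.13, edgeR adjusted p = 8.09e-07). The calls of Atf7ip and Trim24 were kept in all 16 alternatives. At an unadjusted p under 0.05, 6 of the 18 HP1 partners were lower and 2 higher, beside 7.64% and 10.1% of all tested genes. Those with the smallest p among the lower, named after their values were seen, were Incenp, of the chromosomal passenger complex (97.8 ± 7.27 and 71.6 ± 9.27 CPM, adjusted p = 0.0714), and Chaf1a, the large subunit of the chromatin assembly factor that travels with the replication fork (56.4 ± 4.003 and 41.2 ± 4.38 CPM, adjusted p = 0.0717). Of the 18, 12 had a log2 fold change below 0 and 6 above. Chaf1b, 1 of those above, stood at 20.2 ± 0.67 and 21.5 ± 2.49 CPM (log2 fold change 0.09, edgeR adjusted p = 0.802).

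Among genes for the opposing enzymes, the H3K9 demethylases, of 10 tested, 0 passed in edgeR, DESeq2 or limma-voom. At an unadjusted p under 0.05, 3 were higher and 0 lower, beside 10.1% and 7.64% of all tested genes. The median was 0.17, and 0.04 without control library 3, 0.12 without control library 2 and 0.27 without control library 1. Kdm1a, which encodes the demethylase LSD1, was not called and stood at 58.2 ± 3.50 CPM in control and 79.2 ± 7.74 CPM in KO libraries (log2 fold change 0.44, SE 0.12, edgeR adjusted p = 0.0602). It passed in 1 of 16 alternatives (adjusted p = 0.0417, with mitochondrial and structural RNA genes removed) and stood at 0.195 without KO library 1. Jmjd1c, the most abundant of the list, was at 249 ± 48.1 and 249 ± 20.4 CPM (log2 fold change 0.001, adjusted p = 0.999). Of 5 PRDM genes proposed as H3K9 methyltransferases, Prdm2 and Mecom had enough counts. Neither passed in edgeR, DESeq2 or limma-voom, with 0 at an unadjusted p under 0.05. Prdm2 was at 50.4 ± 8.48 and 50.9 ± 2.95 CPM and Mecom at 2.77 ± 1.26 and 4.44 ± 2.34 CPM.

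The Polycomb members of the Cbx family carry a chromodomain for another methylated lysine of histone H3 (H3K27). Of 4 tested, 0 passed with the same 3 tools, 2 were lower at an unadjusted p under 0.05 (7.64% of all tested genes), and the median log2 fold change was -0.46. Cbx2 stood at 10.96 ± 0.96 and 6.31 ± 1.26 CPM (log2 fold change -0.81, SE 0.23, edgeR adjusted p = 0.0780) and Cbx6 at 13.5 ± 3.57 and 9.80 ± 0.50 CPM (adjusted p = 0.269).

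**Figure D4:**
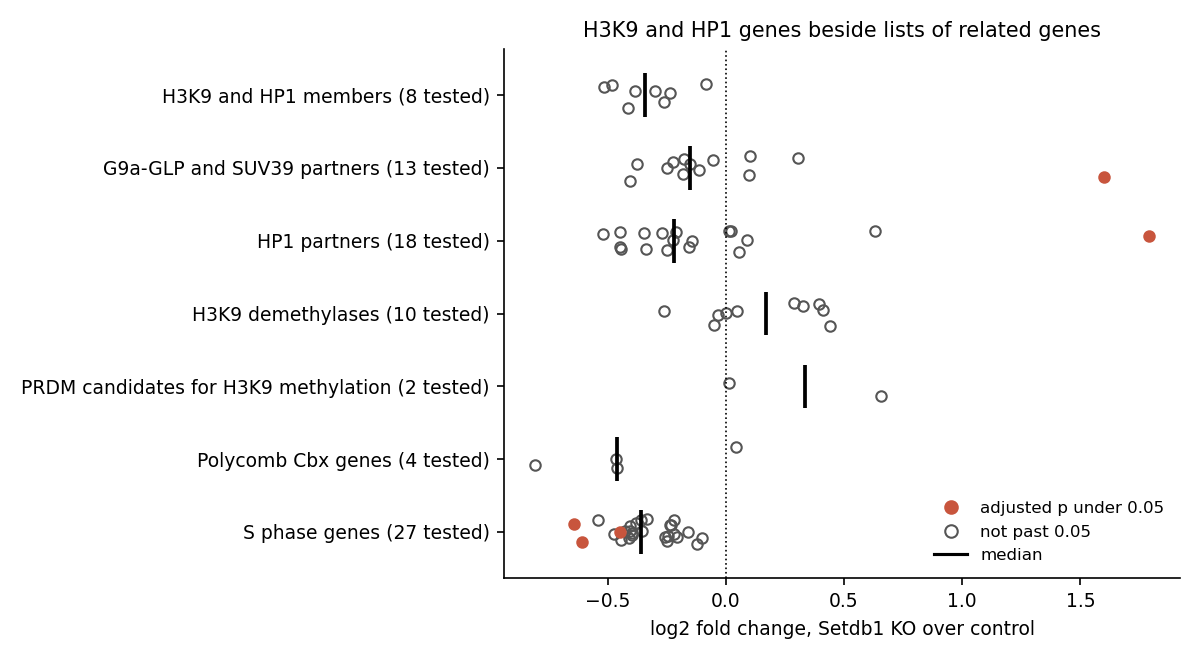
Log2 fold change of KO over control for the tested genes of the 7 lists drawn (cell type markers are not drawn), with filled red points for an edgeR adjusted p under 0.05, open points for the rest and a bar at the list's median. The 8 H3K9 and HP1 genes all lie left of 0 (median -0.34), as do the 27 S phase genes (median -0.36), and the filled points far to the right are Atf7ip and Trim24.

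Transcripts of genes that serve DNA replication (the S phase list) had a similar median. All 27 listed were tested, and 0 were called higher and 3 lower, beside 2.22% and 0.615% of all tested genes. At an unadjusted p under 0.05, 16 were lower and 0 higher, beside 7.64% and 10.1% of all tested genes. All 27 had a log2 fold change below 0, as had 49.1% of all tested genes. The median was -0.36 (-0.28 without KO library 1). Their summed level was 2373 to 2473 CPM in control and 1742 to 1965 CPM in KO libraries. The 3 that fell were Tk1, a thymidine kinase gene (29.4 ± 2.76 and 18.9 ± 2.27 CPM, edgeR adjusted p = 0.0341), the replication initiation gene Mcm10 (43.2 ± 5.12 and 28.2 ± 3.82 CPM, 0.0358) and the helicase gene Mcm7 (179 ± 7.42 and 131 ± 6.61 CPM, 0.0445). These calls were kept in 8, 10 and 5 of 16 alternatives, and no S phase gene was called when either of control libraries 1 and 2, or either of KO libraries 2 and 3, was left out. The part of the S phase difference in the values of the 8 genes was not tested.

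Likeness of pattern was measured for the 3 of the 8 genes with the smallest p, as Pearson's r of log2 CPM over the 6 libraries against 5182 tested genes with a mean of at least 20 CPM. For Cbx1 the most alike were H2afy, the gene of the histone variant macroH2A1 (r = 0.995), and Mcm10 (r = 0.994). For Cbx3 they were Sae1, which encodes a subunit of the SUMO-activating enzyme (r = 0.996), and the fatty acid-binding protein gene Fabp5 (r = 0.991). For Setdb2 they were Gemin5, of the SMN complex (r = 0.993), and Suclg2, of the citric acid cycle (r = 0.992). H2afy stood at 63.7, 72.9 and 66.3 CPM in control and at 49.5, 57.9 and 54.7 CPM in KO libraries, which ranks the 6 libraries in the same order as Cbx1 did. The points are 6 libraries of 2 groups, and the genes were chosen as the best of 5182, so these values describe the libraries only.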

How the data were processed

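The authors deposited 1 table of counts per gene for 6 libraries, whole numbers with no normalisation. STAR, Salmon, DESeq2 1.34.0 and the GRCm38 build are named in the submitters' processing notes, with no role or order. The counting tool and its strand setting were not stated, and the labels' protocols name both a stranded total RNA kit and an mRNA kit.

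The counts were tested in edgeR 4.0.16 (R 4.3.3) with its default expression filter, TMM scaling and the robust quasi-likelihood test. P-values were adjusted by Benjamini-Hochberg over all 11224 genes kept, with a threshold of 0.05, and the code was tested on simulated data. Standard errors are the log2 fold change over the square root of F, and 95% intervals use the moderated degrees of freedom. The p-values measure the spread between these libraries, which may be partly technical. Lengths came from GENCODE M21 and promoters from RefSeq. DESeq2 1.42.0 and limma-voom 3.58.1 were among 16 alternatives.

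The 8 genes and the gene lists were chosen with earlier results of these data known. Named genes are the 8, Setdb1, in each list up to 3 genes that passed with the smallest p or otherwise the 2 most abundant, neighbours starting within 1000 bases on the opposite strand, and the 2 genes most alike in pattern to each of the 3 with the smallest p. Outside this rule, Des, Pax7, Rgs5, Pdgfrb, Cspg4, Myh11, Uhrf1, Incenp, Chaf1a and Chaf1b were named after the results were seen. Genes that share exon bases or sequence with a gene of the 8 were also named.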

Additional observations from a re-analysis of the deposited data

How the results depend on the processing

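None of the 8 genes changed direction in any of the 16 alternatives, and Setdb1, Atf7ip and Trim24 passed in all 16. The number of the 8 that passed was 1 (Cbx1, lower) in 2 alternatives, with mitochondrial and structural RNA genes removed and with control library 3 and KO library 2 both left out, and 0 in the other 14. The count of all genes that passed, 318 (249 higher, 69 lower), became 511 (138 lower) with no low-count filter and 184 (147 higher, 37 lower) with DESeq2. Leaving out 1 library at a time gave 152 to 345 genes, 133 to 255 higher and 15 to 90 lower. Of these, leaving out control library 2 gave 157 in all, KO library 1 gave 152 and KO library 2 gave 180, and the lower count was 38 when control library 1 was left out and 43 when KO library 3 was. With the replicate number as a block, 247 genes passed (206 higher, 41 lower) and 0 of the 8. Same-numbered libraries correlated at 0.14, -0.09 and -0.06 in their deviations from the group means, so the numbers were not taken to pair the samples. With the longest annotated transcript as length, control levels were 13.0 for Suv39h1, 5.57 for Ehmt1, 11.6 for Ehmt2, 3.47 for Setdb2, 27.2 for Cbx1 and 90.5 for Cbx3 CPM per kilobase. The HP1 shares were then 18.9% for Cbx1, 63.0% for Cbx3 and 18.1% for Cbx5. Depth limits Setdb2 and Suv39h2 most, with 22 to 94 counts per library.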
